A study of Mus musculus with 24 samples.

Results

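The 8 genes described here, Saa3, Lcn2, C3, Cebpb, Cebpd, Nfkbiz, Bcl3 and Sod2, code for acute-phase proteins, for transcriptional regulators that act beside them and, in the case of Sod2, for a mitochondrial enzyme. They were taken by symbol, and all 8 were found among the 12091 genes of the deposited expression table. The study sequenced RNA from mouse breast tumors and breast cancer cells in which the secreted growth factor pleiotrophin (PTN) was blocked or knocked down, to find what PTN acts on. Bulk RNA came from 4 experiments of 2 groups each, with 3 biological replicates per group and 24 samples in all. The 4T1 tumors were BALB/c mammary carcinoma cells implanted in the fourth mammary fat pad of BALB/c females at 8 wk of age. The MMTV-PyMT tumors arose in FVB/N mice whose polyoma middle T transgene is driven by the mouse mammary tumor virus promoter, and these mice were treated from 8 to 12 wk of age. In both models the mice received C44, a control IgG, or 3B10, a monoclonal antibody to PTN, each given at 15 mg/kg 2 times a week. E0771 is a C57BL/6 mammary adenocarcinoma line and E0771-LG was derived from a lung metastasis of it. Both were grown in DMEM with serum and carried either a control hairpin against EGFP in pLKO.1-puro (shCtrl) or a hairpin against Ptn (shPTN). They were selected with puromycin at 3 μg/ml and kept in puromycin for 6 wk.

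Each group has limits as a model. The tumors were sequenced whole, so stroma and leukocytes contribute to every value. Each cell line carried a single Ptn hairpin, so an effect of that hairpin beyond Ptn cannot be told apart from the knockdown, and E0771-LG stands for 1 metastasis. Values are on the log2 scale as deposited. In MMTV-PyMT, E0771 and E0771-LG they could be traced back to whole reads, and these 18 samples held between 15.63 and 21.12 M reads, with a median of 18.24 M. By group, the lowest, median and highest depths were 18.76, 19.18 and 19.25 M in MMTV-PyMT C44, and 16.26, 16.29 and 18.44 M in MMTV-PyMT 3B10. E0771 shCtrl held 16.61, 17.25 and 20.42 M, and E0771 shPTN held 15.63, 18.05 and 19.32 M. E0771-LG shCtrl held 17.30, 18.60 and 19.59 M, and E0771-LG shPTN held 17.43, 18.05 and 21.12 M. The 4T1 values appear to be scaled by gene length and their depth is unknown, so levels in 4T1 are set beside those of the other experiments only per length.

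The acute-phase response is the change in protein synthesis that follows injury or inflammation, driven by cytokines of the IL-1 and IL-6 families through NF-κB, STAT3 and the C/EBP factors. C/EBPβ and C/EBPδ bind promoters of acute-phase genes, while IκB-ζ (Nfkbiz) and Bcl-3 are nuclear members of the IκB family that attach to NF-κB dimers on DNA and alter which genes they switch on. Outside the liver, mammary epithelium, macrophages and neutrophils also make serum amyloid A3, lipocalin 2 and complement C3, which is why these genes are read in breast tumors and in tumor cells.

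Ptn itself (chr6:36714929-36810220, minus strand, GRCm38) was measured in every sample. E0771 shCtrl read 2.90, 2.18 and 2.28 and E0771 shPTN read −0.63, 0.25 and 0.53 on the log2 scale. E0771-LG shCtrl read 3.65, 4.51 and 3.74 and E0771-LG shPTN read 1.42, 0.98 and 1.38. The knockdown and control samples did not overlap in either line. Ptn fell by 2.40 on the log2 scale in E0771 (SE 0.37, adjusted p = 0.00159 in limma, n = 3 per group), which is 5.28-fold lower. With a pseudocount of 1 the E0771 difference was −1.67, where shPTN held 12 to 22 reads a sample. Ptn fell by 2.71 in E0771-LG (SE 0.28, adjusted p = 6.3e-05), or 6.52-fold, and the test of the difference between the lines gave −0.30 (adjusted p = 0.651). MMTV-PyMT tumors read 2.80, 2.73 and 3.42 under C44 and 3.28, 2.95 and 4.22 under 3B10, with overlapping groups (log2 fold change 0.50, adjusted p = 1). 4T1 tumors read −0.19, −0.65 and −0.12 under C44 and −0.76, 0.86 and 0.37 under 3B10, which was too low to be tested. The antibody acts on the protein, whose amount the deposited table does not hold.

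Saa3 (ENSMUSG00000040026, chr7:46711998-46715700, minus strand) codes for serum amyloid A3, the form of this acute-phase apolipoprotein that is made outside the liver. In E0771-LG it read 3.43, 4.65 and 3.99 in shCtrl, from 186, 492 and 296 reads, and 1.80, 2.42 and 2.29 in shPTN, from 73, 96 and 85 reads. All 3 knockdown samples lay below all 3 controls. Saa3 fell by 1.86 on the log2 scale in these cells (SE 0.30, n = 3 per group, adjusted p = 0.00083), 3.62-fold. E0771 read −0.46, 0.14 and 1.05 in shCtrl and 0.15, −0.93 and −0.88 in shPTN, from 8 to 34 reads a sample. At this depth its groups overlapped and the mean difference of −0.79 (SE 0.53) had an adjusted p of 0.325. The difference between the lines in the size of the effect was −1.06 (SE 0.61, adjusted p = 0.192). That test passed under 1 alternative, with a pseudocount of 1 (−1.26, adjusted p = 0.0235, against a range of 0.0235 to 0.388 over all alternatives). 4T1 tumors read 6.07, 6.39 and 6.93 under C44 and 6.50, 5.63 and 4.60 under 3B10. The lowest value came from 3B10 replicate 3, and 3B10 replicate 1 lay above 2 of the 3 controls (log2 fold change −0.89, SE 0.45, adjusted p = 0.846). The difference was −0.40 without 3B10 replicate 3 and −1.35 without 3B10 replicate 1. In MMTV-PyMT the values were 1.04, 2.25 and −0.19 under C44 and 2.17, 0.22 and 4.08 under 3B10. These groups also overlapped, and the spread within the 3B10 group (SD 1.93) was larger than the mean difference of 1.12 (SE 1.01, adjusted p = 1). Without 3B10 replicate 3, whose 275 reads were the most of any MMTV-PyMT sample, that difference was 0.16.

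Promoter sequence was available for 6 of the 8 genes (RefSeq, GRCm38.p6), and Cebpd and Nfkbiz had no entry. The 250 bases before each start were searched on both strands for the C/EBP word TTGCNNAA, for the full C/EBP consensus and for the κB consensus, where the full C/EBP consensus contains the word. Of 32851 promoters of this length, 9.56% held the word, 0.06% held the full C/EBP consensus and 7.25% held the κB consensus. The word occurred before Saa3, Lcn2 and C3, the κB consensus before Sod2, and neither before Cebpb or Bcl3. A match describes letters in the window and is not evidence of binding. The sequences before Saa3 and C3 are shown because these 2 genes fell in the same cells and both hold the word. The Saa3 sequence lies at chr7:46715701-46715926 and is read 5′ to 3′ on the minus strand, with bases that annotated exons cover left off. Its capitals mark the word, written there from the other strand, 99 to 92 bases before the start.
Saa3: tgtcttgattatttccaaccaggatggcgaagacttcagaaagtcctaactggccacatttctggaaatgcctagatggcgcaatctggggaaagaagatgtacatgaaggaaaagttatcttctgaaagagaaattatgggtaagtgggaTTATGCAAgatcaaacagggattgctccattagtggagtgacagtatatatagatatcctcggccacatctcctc
The C3 sequence lies at chr17:57228137-57228386, also on the minus strand, and its capitals mark the word 45 to 38 bases before the start.
C3: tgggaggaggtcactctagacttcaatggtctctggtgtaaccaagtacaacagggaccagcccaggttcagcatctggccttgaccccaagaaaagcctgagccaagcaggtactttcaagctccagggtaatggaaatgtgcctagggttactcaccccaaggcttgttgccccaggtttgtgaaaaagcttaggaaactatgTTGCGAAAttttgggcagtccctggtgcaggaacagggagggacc

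**Figure D1:**
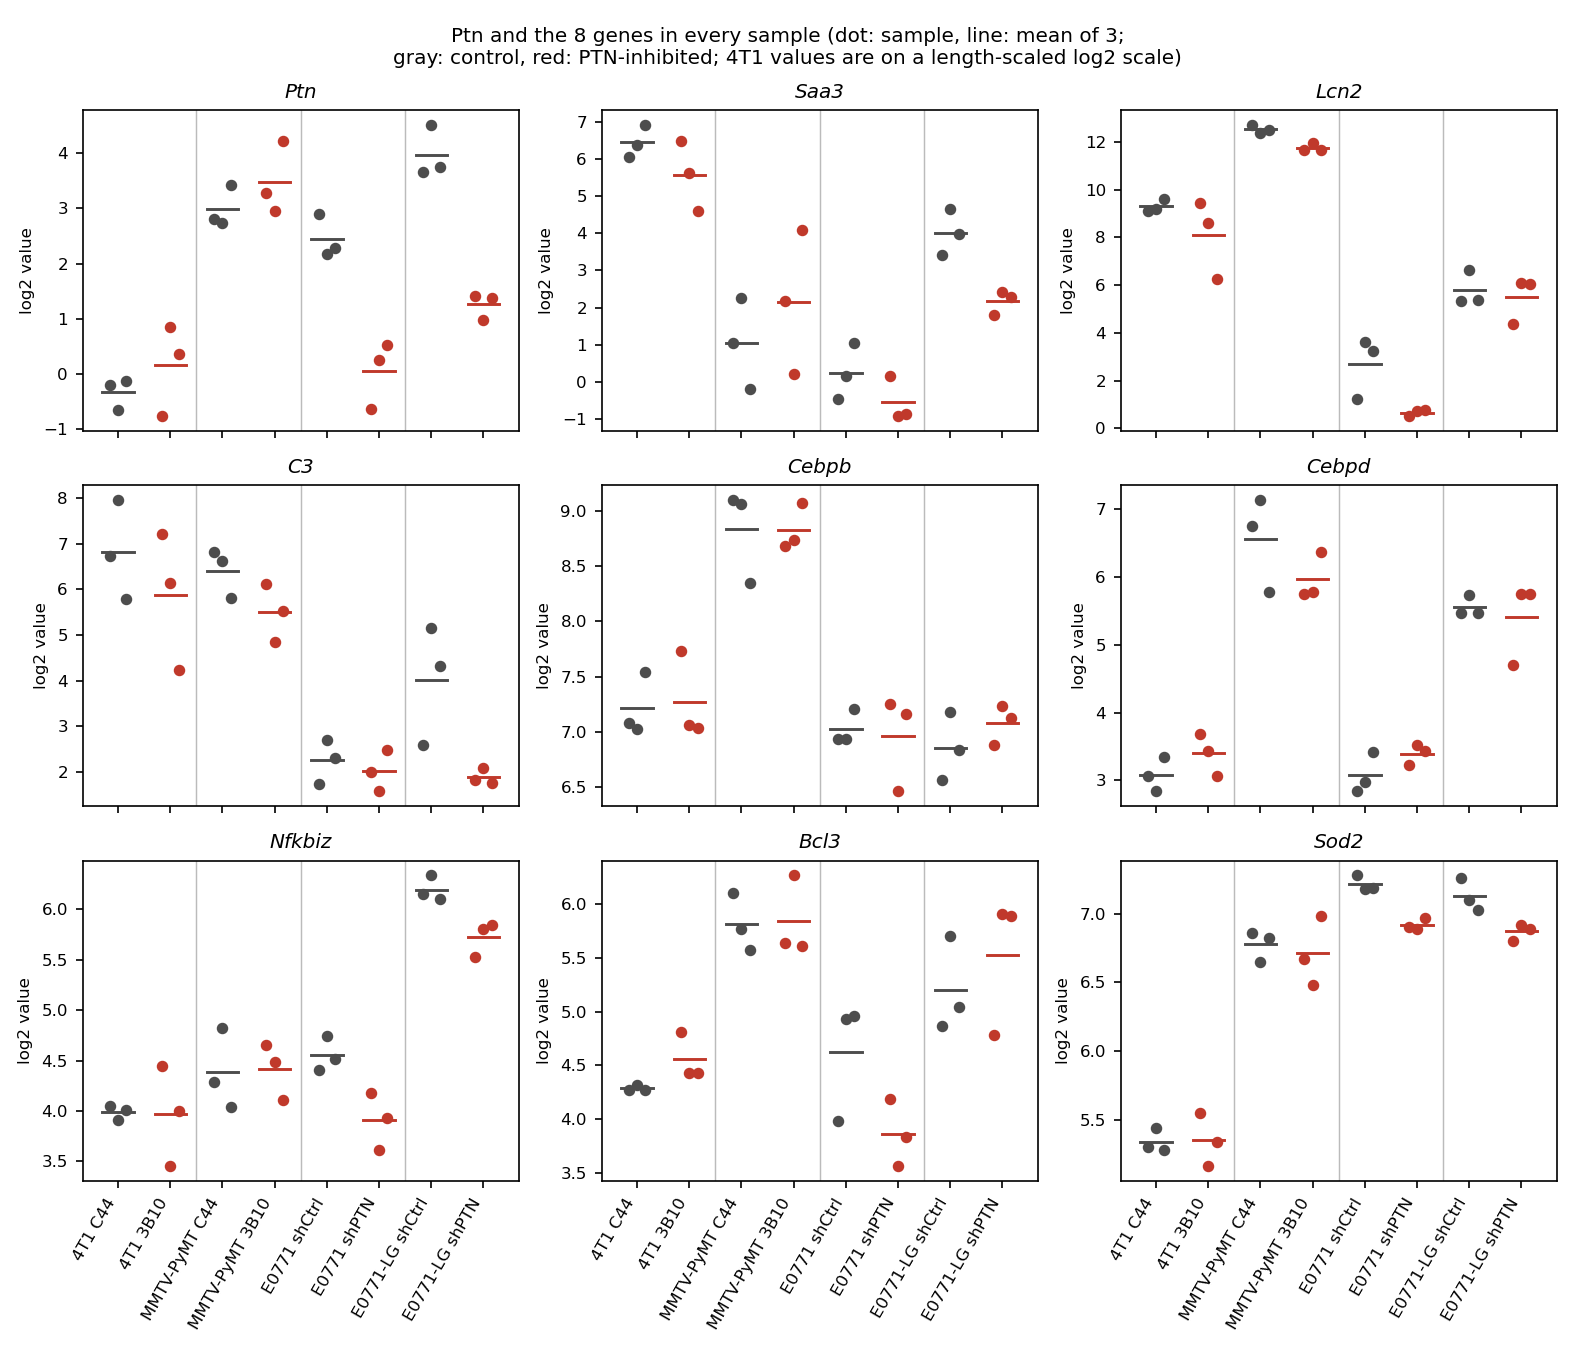
Log2 value of Ptn and each of the 8 genes in each of the 24 samples, by experiment and group, with a point per replicate and a bar at the group mean. In E0771-LG the 3 shPTN samples lay below the 3 shCtrl samples for Saa3, C3, Nfkbiz and Sod2, and in E0771 for Lcn2, Nfkbiz and Sod2. How many of all genes separate in this way was not counted.

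Lcn2 (ENSMUSG00000026822, chr2:32384633-32388252, minus strand) codes for lipocalin 2, which binds bacterial siderophores and withholds iron. In its promoter the word read TTGCTCAA, at chr2:32387948-32387955 on the minus strand, 216 to 209 bases before the start. It lies in bases that annotated exons cover, as do 197 of the 250 bases of this window, the kind left off the sequence shown for Saa3. E0771 read 1.23, 3.63 and 3.24 in shCtrl, from 40, 253 and 156 reads, and 0.51, 0.71 and 0.76 in shPTN, from 27, 29 and 26 reads. The knockdown samples sat close together below every control, and shCtrl replicate 1 lay nearer to them than to the other controls. Lcn2 fell by 2.04 on the log2 scale (SE 0.53, adjusted p = 0.0243), 4.11-fold, in 3 of 3 samples. That call rested on all libraries but shCtrl replicate 1, without which the fall was −2.78 (adjusted p = 0.000428). It was lost without shCtrl replicate 2 (−1.57, adjusted p = 0.086), shCtrl replicate 3 (−1.77, 0.0879), shPTN replicate 1 (−1.97, 0.0929), shPTN replicate 2 (−2.07, 0.0755) or shPTN replicate 3 (−2.09, 0.0752). It was also lost with no filter (adjusted p = 0.0546), with voom weights (0.0945) and in the fit of 12 samples (0.0512), against a range of 0.000428 to 0.0945 over all alternatives, and a filter at 5 left Lcn2 untested. E0771-LG read 5.33, 6.65 and 5.37 in shCtrl and 4.39, 6.09 and 6.06 in shPTN. Here the groups overlapped, with the lowest value in shPTN replicate 1 (log2 fold change −0.27, SE 0.59, adjusted p = 0.739). The difference between the lines was 1.77 (SE 0.91, adjusted p = 0.155), and it passed without E0771 shCtrl replicate 1 (2.50, adjusted p = 0.0254) and with the replicate number as a block (0.0357), over a range of 0.0254 to 0.449.

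The tumors held far more Lcn2 than the cultured cells. MMTV-PyMT read 12.72, 12.38 and 12.49 under C44 and 11.65, 11.98 and 11.66 under 3B10, from 52231 to 129494 reads a sample. All 3 antibody-treated tumors lay below the 3 controls, by a mean of −0.77 (SE 0.21), 1.70-fold lower, but the adjusted p was 1. 4T1 read 9.12, 9.20 and 9.63 under C44 and 9.45, 8.59 and 6.24 under 3B10. In 4T1 3B10 replicate 1 lay above 2 of 3 controls and replicate 3 lay far below the other 5 tumors, so the mean difference of −1.22 (SE 0.71, adjusted p = 0.874) became −0.30 without replicate 3. With each library left out in turn the 4T1 difference ran from −1.90 to −0.30. In whole tumors, fewer cells of a type and less RNA per cell cannot be told apart. An exact two-sided permutation test of 3 samples against 3 cannot give a p below 0.1, so all tests here borrow the spread of all genes through limma. A full separation of the groups has that permutation p of 0.1. The share of all genes that separated was not counted, so a separation is only a description.

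C3 (ENSMUSG00000024164, chr17:57203970-57228136, minus strand) codes for the complement component on which the classical, lectin and alternative pathways meet. E0771-LG read 2.58, 5.16 and 4.31 in shCtrl, from 103, 701 and 369 reads, and 1.82, 2.08 and 1.75 in shPTN, from 74, 76 and 58 reads. Every knockdown sample lay below every control, and the controls were spread widely (SD 1.32, against 0.18 in shPTN). C3 fell by 2.14 on the log2 scale (SE 0.63, adjusted p = 0.0333), 4.39-fold, in 3 of 3 samples. The call held without shCtrl replicate 1 (−2.85, adjusted p = 1.78e-05) and without shCtrl replicate 2 (−1.56, 0.0198). It was lost without shCtrl replicate 3 (−1.99, adjusted p = 0.0934), shPTN replicate 1 (−2.10, 0.0965), shPTN replicate 2 (−2.24, 0.0529) or shPTN replicate 3 (−2.07, 0.0863), and with voom weights (−2.18, 0.102), over a range of 1.78e-05 to 0.102. E0771 read 1.74, 2.70 and 2.31 in shCtrl and 2.00, 1.57 and 2.47 in shPTN. These groups overlapped (log2 fold change −0.24, adjusted p = 0.642). The difference between the lines was −1.90 (SE 0.73, adjusted p = 0.0606). It passed with quantile normalization (−2.05, adjusted p = 0.0206), with the replicate number as a block (0.0347) and without E0771-LG shCtrl replicate 1 (−2.62, 0.000927), over a range of 0.000927 to 0.235. In 4T1 the values were 6.73, 7.96 and 5.79 under C44 and 7.21, 6.15 and 4.24 under 3B10. The lowest again came from 3B10 replicate 3, without which the mean difference of −0.96 (adjusted p = 0.922) was −0.15. With each library left out in turn the 4T1 difference ran from −1.63 to −0.15. MMTV-PyMT read 6.81, 6.62 and 5.80 under C44 and 6.12, 4.85 and 5.53 under 3B10, where 3B10 replicate 1 lay above C44 replicate 3 (log2 fold change −0.91, SE 0.37, adjusted p = 1). With each library left out in turn the MMTV-PyMT difference ran from −1.215 to −0.582.

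**Figure D2:**
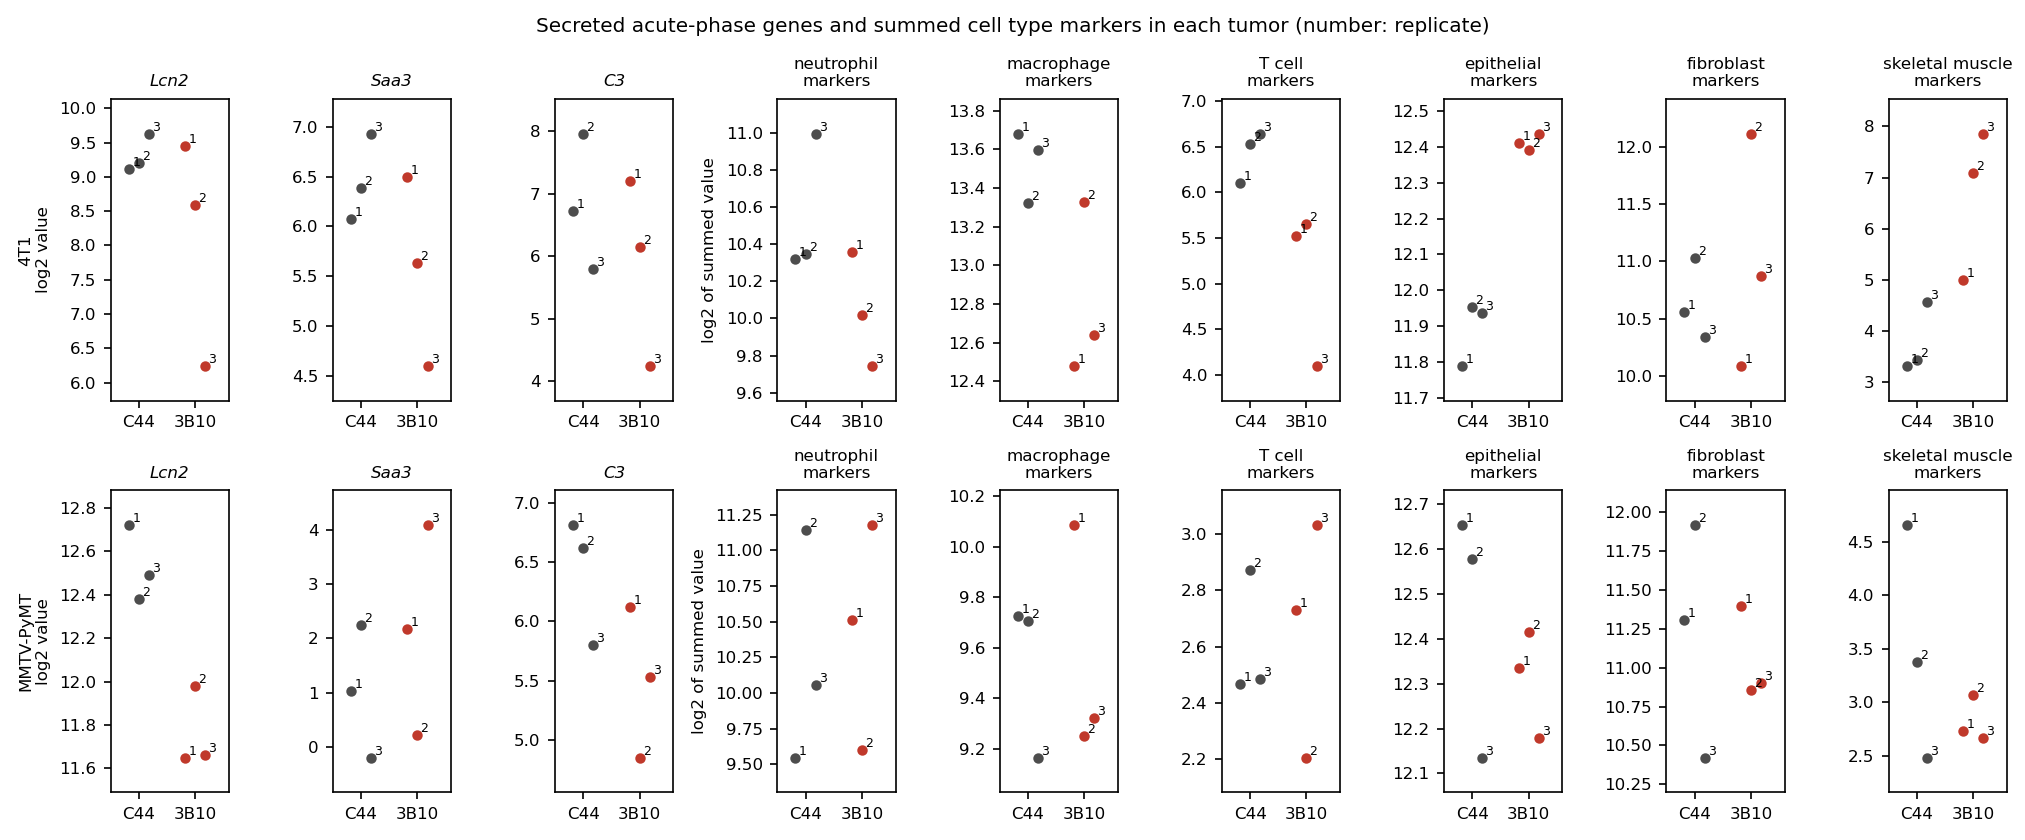
Log2 values of Saa3, Lcn2 and C3 and log2 of the summed markers of other cell types in each tumor, by model and antibody, with each point numbered by replicate. In 4T1 the 3B10 replicate 3 tumor was lowest for Saa3, Lcn2 and C3.

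Cebpb (ENSMUSG00000056501, chr2:167688915-167690418, plus strand) codes for C/EBPβ, and some of its exon bases are shared with Tmem189 on the other strand. Treated and control samples were close to even in each experiment. E0771 read 6.93, 6.93 and 7.21 in shCtrl and 7.25, 6.46 and 7.16 in shPTN (log2 fold change −0.07, adjusted p = 0.84). E0771-LG read 6.56, 7.18 and 6.83 in shCtrl and 6.88, 7.23 and 7.12 in shPTN (0.22, adjusted p = 0.261). The groups overlapped in both lines, and the difference between the lines was 0.29 (adjusted p = 0.455). Without shCtrl replicate 2 the E0771-LG difference was 0.39 with an adjusted p of 0.0281, against a range of 0.0281 to 0.657. 4T1 read 7.08, 7.02 and 7.54 under C44 and 7.73, 7.06 and 7.03 under 3B10 (0.06, adjusted p = 0.989). MMTV-PyMT read 9.10, 9.06 and 8.35 under C44 and 8.68, 8.74 and 9.07 under 3B10 (−0.01, adjusted p = 1). The tumor groups overlapped in both models.

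Cebpd (ENSMUSG00000071637, chr16:15887286-15891031, plus strand) codes for C/EBPδ, whose transcript is itself induced in acute inflammation, and it shares exon bases with Spidr on the other strand. E0771 read 2.84, 2.98 and 3.42 in shCtrl and 3.22, 3.52 and 3.44 in shPTN (log2 fold change 0.32, adjusted p = 0.283). E0771-LG read 5.46, 5.73 and 5.46 in shCtrl and 4.70, 5.75 and 5.75 in shPTN (−0.15, adjusted p = 0.701). The knockdown groups overlapped their controls, and the clear step was between the lines, with every E0771-LG sample above every E0771 sample. 4T1 read 3.06, 2.84 and 3.35 under C44 and 3.68, 3.44 and 3.07 under 3B10 (0.32, adjusted p = 0.901). MMTV-PyMT read 6.75, 7.13 and 5.78 under C44 and 5.75, 5.77 and 6.37 under 3B10 (−0.59, SE 0.35, adjusted p = 1). In MMTV-PyMT 2 of the 3 antibody-treated tumors lay below all controls, and with each library left out in turn the difference ran from −0.981 to −0.305.

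Nfkbiz (ENSMUSG00000035356, chr16:55811375-55838899, minus strand) codes for IκB-ζ, which is needed for the induction of Lcn2 and other secondary NF-κB genes by IL-1. It was lower after knockdown in both lines. E0771 read 4.41, 4.74 and 4.52 in shCtrl and 4.18, 3.61 and 3.93 in shPTN. E0771-LG read 6.15, 6.34 and 6.10 in shCtrl and 5.53, 5.81 and 5.85 in shPTN. In each line all 3 knockdown samples lay below all 3 controls. Nfkbiz fell by 0.65 on the log2 scale in E0771 (SE 0.17, adjusted p = 0.019), 1.57-fold. This call was lost without shCtrl replicate 2 (−0.56, adjusted p = 0.0824), shCtrl replicate 3 (−0.67, 0.0579) or shPTN replicate 3 (−0.66, 0.0627), over a range of 0.00684 to 0.0824. Nfkbiz fell by 0.47 in E0771-LG (SE 0.12, adjusted p = 0.00923), 1.38-fold, in 3 of 3 samples. The E0771-LG call held in all 16 alternatives, with adjusted p between 0.00548 and 0.0359. The falls in the lines differed by 0.19 (adjusted p = 0.51). 4T1 read 4.05, 3.91 and 4.01 under C44 and 4.45, 3.45 and 4.00 under 3B10 (−0.02, adjusted p = 0.997). MMTV-PyMT read 4.29, 4.82 and 4.04 under C44 and 4.65, 4.49 and 4.11 under 3B10 (0.04, adjusted p = 1). Neither tumor model showed a separation.

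Bcl3 (ENSMUSG00000053175, chr7:19808462-19822770, minus strand) codes for Bcl-3, a partner of p50 and p52 dimers, and shares exon bases with Gm16175. E0771 read 3.98, 4.93 and 4.96 in shCtrl and 4.19, 3.56 and 3.83 in shPTN. Because shCtrl replicate 1 lay among the knockdown samples, the groups overlapped and the mean difference of −0.77 (SE 0.27) had an adjusted p of 0.0698. Without that control it was −1.09 with an adjusted p of 0.00547, over a range of 0.00547 to 0.217. E0771-LG read 4.87, 5.70 and 5.04 in shCtrl and 4.78, 5.91 and 5.89 in shPTN. Here shPTN replicate 1 was the lowest and the other knockdown samples were the highest (log2 fold change 0.32, adjusted p = 0.517). Without shPTN replicate 1 the difference was 0.70 with an adjusted p of 0.0442, over a range of 0.0442 to 0.82. The difference between the lines was 1.09 (SE 0.51, adjusted p = 0.12), and it passed without E0771 shCtrl replicate 1 (1.41, adjusted p = 0.043) or E0771-LG shPTN replicate 1 (1.46, 0.0234), over a range of 0.0234 to 0.246. 4T1 read 4.27, 4.32 and 4.27 under C44 and 4.81, 4.43 and 4.43 under 3B10. All 3 antibody-treated tumors lay above the 3 controls, by a mean of 0.27 (SE 0.15), but the adjusted p was 0.868. Separations of this kind were not counted over all genes. MMTV-PyMT read 6.10, 5.77 and 5.57 under C44 and 5.64, 6.27 and 5.61 under 3B10 (0.03, adjusted p = 1), with overlapping groups.

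Sod2 (ENSMUSG00000006818, chr17:13006846-13040063, plus strand) codes for the manganese superoxide dismutase of mitochondria, a classical NF-κB target. Its promoter is shown because it alone of the 6 held the κB consensus and because Sod2 fell in E0771. The sequence lies at chr17:13007589-13007816 and is read 5′ to 3′ on the plus strand, without the bases that annotated exons cover. Capitals mark the κB match 83 to 74 bases before the start.
Sod2: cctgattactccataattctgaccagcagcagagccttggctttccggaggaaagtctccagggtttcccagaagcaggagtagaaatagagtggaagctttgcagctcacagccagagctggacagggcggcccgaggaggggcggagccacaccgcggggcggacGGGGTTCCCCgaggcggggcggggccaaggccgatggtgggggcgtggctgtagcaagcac
E0771 read 7.28, 7.18 and 7.19 in shCtrl and 6.90, 6.89 and 6.97 in shPTN. E0771-LG read 7.26, 7.10 and 7.03 in shCtrl and 6.80, 6.92 and 6.89 in shPTN. The differences were small but the replicates were tight, and in each line all 3 knockdown samples lay below all 3 controls. Sod2 fell by 0.30 on the log2 scale in E0771 (SE 0.08, adjusted p = 0.0213), 1.23-fold. The E0771 call was lost without shCtrl replicate 1 (−0.27, adjusted p = 0.0674), shCtrl replicate 2 (−0.32, 0.0516), shCtrl replicate 3 (−0.32, 0.0735) or shPTN replicate 3 (−0.32, 0.0636), over a range of 0.0208 to 0.0735. In E0771-LG the difference was −0.26 (SE 0.10) with an adjusted p of 0.0515. It passed with median-of-ratios scaling (−0.29, adjusted p = 0.0398) and in the fit of 12 samples (adjusted p = 0.0193), over a range of 0.0193 to 0.185. The test between the lines gave 0.04 (adjusted p = 0.803). 4T1 read 5.30, 5.44 and 5.28 under C44 and 5.55, 5.16 and 5.34 under 3B10 (0.01, adjusted p = 0.997). MMTV-PyMT read 6.86, 6.65 and 6.82 under C44 and 6.67, 6.48 and 6.98 under 3B10 (−0.07, adjusted p = 1). The tumor groups overlapped in both models.

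Levels of different genes can be compared per kilobase of exon on the log2 scale. In MMTV-PyMT C44 tumors the most abundant of the 8 by this measure was Lcn2 (11.14), followed by Cebpb (8.25), and the least abundant was Saa3 (−0.35). In 4T1 C44 tumors Lcn2 was again highest (9.31), followed by Cebpb (7.21), C3 (6.83) and Saa3 (6.46), and Cebpd was lowest (3.08). Cebpb led in the cells, at 6.43 in E0771 shCtrl and 6.27 in E0771-LG shCtrl. Secreted proteins were low in E0771 shCtrl per kilobase, with Lcn2 at 1.31, C3 at −0.11 and Saa3 at −1.14. In E0771-LG shCtrl the same scale gave 4.39 for Lcn2, 1.66 for C3 and 2.64 for Saa3. So Saa3 stood above C3 in E0771-LG shCtrl and below it in E0771 shCtrl.

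Across groups, the order of levels differed by gene, and 4T1 was kept apart because of its scale. Saa3 group means ran from E0771-LG shCtrl (4.03, SD 0.61) through E0771-LG shPTN (2.17, SD 0.33), MMTV-PyMT 3B10 (2.16, SD 1.93), MMTV-PyMT C44 (1.04, SD 1.22) and E0771 shCtrl (0.24, SD 0.76) to E0771 shPTN (−0.55, SD 0.61). The steps larger than the SD of both neighbours were the top one and, by little, the bottom one, whose samples overlapped. Lcn2 ran from MMTV-PyMT C44 (12.53, SD 0.17) and 3B10 (11.76, SD 0.19) to E0771-LG shCtrl (5.78, SD 0.75), E0771-LG shPTN (5.51, SD 0.97), E0771 shCtrl (2.70, SD 1.29) and E0771 shPTN (0.66, SD 0.13). Among those steps, the step between the E0771-LG groups lay within the spread. C3 ran from MMTV-PyMT C44 (6.41, SD 0.54) and 3B10 (5.50, SD 0.63) to E0771-LG shCtrl (4.02, SD 1.32), E0771 shCtrl (2.25, SD 0.48), E0771 shPTN (2.01, SD 0.45) and E0771-LG shPTN (1.88, SD 0.18). The last 3 of these did not differ beyond their spread. Cebpb was highest in MMTV-PyMT C44 (8.84, SD 0.42) and 3B10 (8.83, SD 0.21), which did not differ beyond their spread, and neither did the 4 cell groups, between 6.86 and 7.08. Cebpd ran from MMTV-PyMT C44 (6.56, SD 0.70) through MMTV-PyMT 3B10 (5.96, SD 0.36), E0771-LG shCtrl (5.55, SD 0.15) and E0771-LG shPTN (5.40, SD 0.60) to E0771 shPTN (3.40, SD 0.15) and E0771 shCtrl (3.08, SD 0.30). The step from E0771-LG to E0771 cleared the spread by a wide margin, those between MMTV-PyMT 3B10 and E0771-LG shCtrl and between the E0771 groups cleared it by little, and the other steps did not. Nfkbiz ran from E0771-LG shCtrl (6.20, SD 0.13) and shPTN (5.73, SD 0.17) to E0771 shCtrl (4.56, SD 0.17), MMTV-PyMT 3B10 (4.42, SD 0.28), MMTV-PyMT C44 (4.38, SD 0.40) and E0771 shPTN (3.90, SD 0.28). Its middle 3 groups did not differ beyond their spread. Bcl3 ran from MMTV-PyMT 3B10 (5.84, SD 0.37) and C44 (5.81, SD 0.27) through E0771-LG shPTN (5.53, SD 0.65), E0771-LG shCtrl (5.20, SD 0.44) and E0771 shCtrl (4.63, SD 0.56) to E0771 shPTN (3.86, SD 0.32), where the last step, and by little the step before it, exceeded the SD of both neighbours. Sod2 ran from E0771 shCtrl (7.22, SD 0.06) and E0771-LG shCtrl (7.13, SD 0.12) to E0771 shPTN (6.92, SD 0.04), E0771-LG shPTN (6.87, SD 0.06), MMTV-PyMT C44 (6.77, SD 0.11) and MMTV-PyMT 3B10 (6.71, SD 0.25). Of the Sod2 steps, the 1 between E0771-LG shCtrl and E0771 shPTN exceeded the SD of both neighbours.

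Knockdown in E0771 asked what loss of Ptn does in cells that seldom metastasize. Lcn2, Nfkbiz and Sod2 fell, 4.11-fold, 1.57-fold and 1.23-fold, each in 3 of 3 samples, and Saa3, C3, Cebpb, Cebpd and Bcl3 did not pass. A change in 3 of 3 samples adds no support to a call. Of the list genes named because they passed, 21 of 21 in E0771 and 38 of 38 in E0771-LG lay past every control too. Of the 8 genes 3 were called lower, where called means an adjusted p under 0.05 in limma over the 10394 genes tested, and 11.7% of all those genes were called lower. No member was called higher, against 8.89% of all genes, with 0 higher at an unadjusted p under 0.05 as well and 0 with voom weights. At an unadjusted p under 0.05, 4 were lower and 0 higher, against 19.6% and 14.5% of all genes. The members' median log2 fold change was −0.48, beside −0.03 over all genes. With voom weights 2 were called lower. Without shCtrl replicate 2, shCtrl replicate 3 or shPTN replicate 3 the count called lower was 0, and without shPTN replicate 1 or shPTN replicate 2 it was 2.

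Knockdown in E0771-LG put the same question to the metastatic derivative. Saa3, C3 and Nfkbiz fell, 3.62-fold, 4.39-fold and 1.38-fold, each in 3 of 3 samples, and Lcn2, Cebpb, Cebpd, Bcl3 and Sod2 did not pass. In this line 3 of 8 members were called lower, and so were 22.1% of the 10405 genes tested. Of the members 0 were called higher, against 24.3% of all genes, with 0 at an unadjusted p under 0.05 and 0 with voom weights. At an unadjusted p under 0.05, 4 were lower and 0 higher, where all genes gave 25.4% and 28.8%. The members' median was −0.26, beside 0.05 over all genes. With voom weights 2 were called lower. The count called lower was 2 without shCtrl replicate 3 or any 1 shPTN replicate, as C3 was lost. With all libraries kept, that count ran from 2 to 4 over the alternatives. Sod2 also passed with median-of-ratios scaling and in the fit of 12 samples. Without shCtrl replicate 2 Cebpb was called higher (0.39), and without shPTN replicate 1 Bcl3 was (0.70), so the count called higher was 1 in each case instead of 0.

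**Figure D3:**
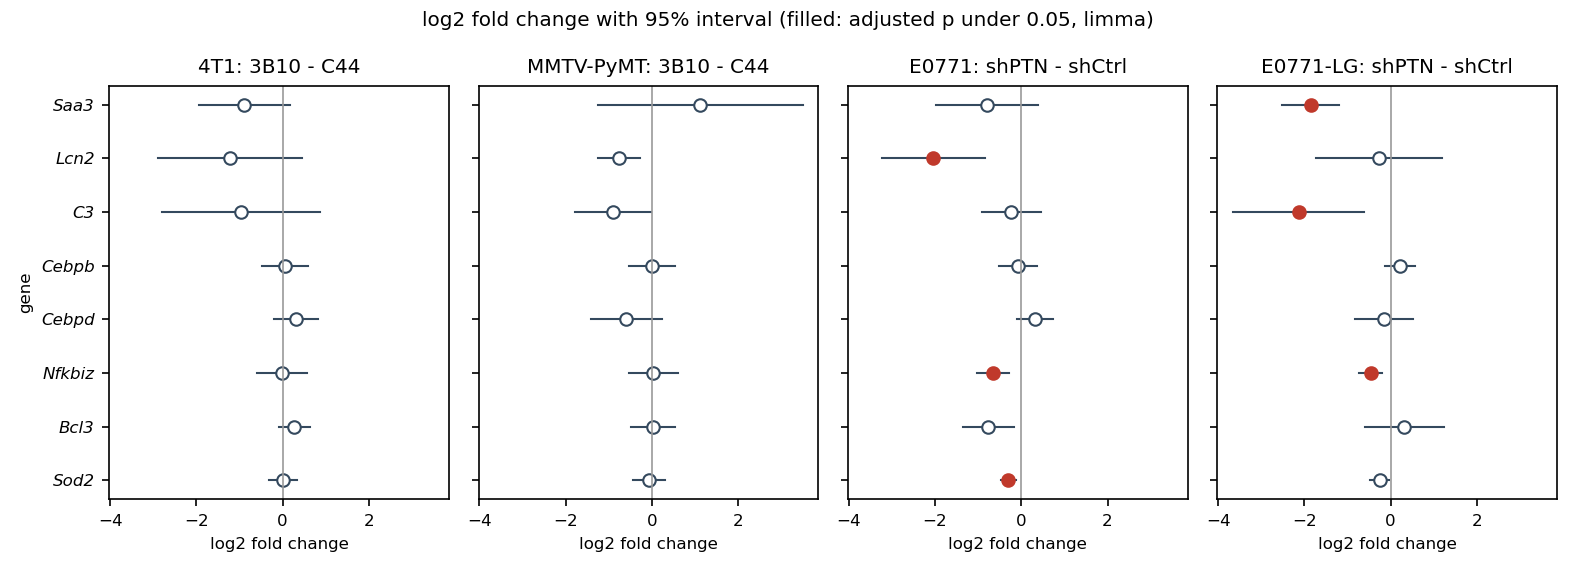
Log2 fold change of each of the 8 genes in each experiment, treated against control, with bars for the 95% confidence interval from limma and filled points where the adjusted p was under 0.05. Nfkbiz was lower in both cell lines, while Lcn2 and Sod2 passed in E0771 and Saa3 and C3 in E0771-LG.

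Whether the lines responded differently was tested directly. By this test 0 of the 8 genes differed, lower or higher, in limma over 10600 genes, where 15.7% of all genes were called lower in E0771-LG relative to E0771 and 18.3% higher. At an unadjusted p under 0.05 there was 1 member lower, C3, and 0 higher, against 20.3% and 24.8% of all genes, and voom weights called 0. The members' median difference was 0.12, beside 0.08 over all genes. The falls of Lcn2 and Sod2 in E0771 and of Saa3 and C3 in E0771-LG were therefore not shown to be limited to their line. Without E0771-LG shCtrl replicate 1 C3 differed (−2.62, adjusted p = 0.000927, range 0.000927 to 0.235). Without E0771 shCtrl replicate 1 Lcn2 (2.50, adjusted p = 0.0254, range 0.0254 to 0.449) and Bcl3 (1.41, adjusted p = 0.043) differed, and Bcl3 did also without E0771-LG shPTN replicate 1 (1.46, adjusted p = 0.0234, range 0.0234 to 0.246).

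Comparison of the shCtrl cells asked how the metastatic derivative differs from its parent before knockdown. Saa3, Lcn2, C3, Cebpd and Nfkbiz were higher in E0771-LG, and Cebpb, Bcl3 and Sod2 did not pass. Saa3 was 13.8-fold higher (log2 difference 3.78, SE 0.43, adjusted p = 3.83e-06) and Lcn2 was 8.47-fold higher (3.08, SE 0.64, adjusted p = 0.00193). C3 was 3.41-fold higher (1.77, SE 0.51, adjusted p = 0.0105), although E0771-LG shCtrl replicate 1, at 2.58, lay below E0771 shCtrl replicate 2, at 2.70. Cebpd was higher by 2.47 (SE 0.24, adjusted p = 1.38e-06) and Nfkbiz by 1.64 (SE 0.15, adjusted p = 3.82e-07), or 3.11-fold. For Saa3, Lcn2, Cebpd and Nfkbiz all 3 E0771-LG samples lay above all 3 E0771 samples. Leaving out a library moved the C3 difference between 1.20 and 2.49 and the Lcn2 difference between 2.35 and 3.55, and 5 members were called higher each time. With all libraries kept, the Saa3 difference ran from 2.97 to 3.94 over the other alternatives. E0771 shCtrl held 12 to 34 Saa3 reads a sample. Ptn was also higher in E0771-LG shCtrl (1.51, SE 0.34, adjusted p = 0.00153), 2.86-fold, with all 3 samples above.

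Of the 8 genes 5 were called higher in E0771-LG shCtrl, against 20.5% of the 10600 genes tested. None was called lower in limma, where 37.3% of all genes were, nor at an unadjusted p under 0.05, which gave 0 lower and 5 higher against 39.8% and 22.4% of all genes. With voom weights the counts were 0 and 5. The members' median was 1.70, beside −0.15 over all genes. That shift of the whole comparison was removed by scaling, to 0.00 with quantile normalization and 0.01 with median-of-ratios scaling, and 5 members were called higher under both. The imbalance over all genes went with it, as 26.6% were called lower and 27.8% higher with quantile normalization, and 27.9% and 29.1% with median-of-ratios scaling. Both scalings bring the samples to a common centre by construction, so these shares cannot show whether the imbalance is real. The shCtrl samples of this comparison are the controls of both knockdown comparisons, so genes high in E0771-LG shCtrl enter the E0771-LG knockdown from a high control.

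Markers and related genes also differed between the shCtrl lines, and their part in the higher values of the 5 members was not tested. Called higher in E0771-LG were 3 of 3 epithelial, 2 of 4 neutrophil, 1 of 1 adipocyte and 1 of 1 muscle markers and 1 of 2 T cell markers, with 0 lower in limma, at an unadjusted p under 0.05 and with voom weights. Over all alternatives these counts ran from 2 to 4, 1 to 3, 1 to 1, 0 to 1 and 0 to 1. Other lists went both ways, with 2 of 3 macrophage markers lower and 1 higher, 2 of 6 fibroblast markers lower and 3 higher, and 1 of 2 endothelial markers lower. Of other NF-κB genes 5 of 9 were higher (5 to 7 over alternatives). Other acute-phase genes gave 3 of 8 lower and 3 higher, and other C/EBP genes 0 of 4. Cytokines and receptors gave 2 of 13 lower and 4 higher. The enzymes gave 4 of 12 lower and 3 higher, and receptors for the secreted proteins 1 of 4 lower and 2 higher. Of other complement genes 5 of 10 were lower (4 to 7) and 2 higher, of which C4b passed the filter through E0771-LG shCtrl alone and had to differ. Mrc1, Dcn, Krt18, Cd3d, Il1a and Slc22a17 reached the filter in E0771-LG samples only, and Lbp and Agt in E0771 samples only. Acta1 and Sod3 reached it in every E0771-LG shCtrl sample and in no E0771 shCtrl sample, and Cp in 3 against 1. These genes entered through the samples where they are high, so list counts that include them support nothing. All genes gave 37.3% lower and 20.5% higher.

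Antibody treatment of 4T1 tumors asked what blocking PTN does in an implanted tumor. Saa3, Lcn2 and C3 had lower means under 3B10, by −0.89, −1.22 and −0.96, but in each case 3B10 replicate 1 lay among the controls. Cebpb, Cebpd, Nfkbiz, Bcl3 and Sod2 differed by between −0.02 and 0.32 on the log2 scale. Among 11467 genes, limma called 0 of the 8 lower and 0 higher, as it did 0% of all genes in each direction. The counts at an unadjusted p under 0.05 were 0 and 0 members, against 3.1% and 3.17% of all genes. Read counts were not recoverable, so voom was not run. The members' median was 0, beside 0.01 over all genes.

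In MMTV-PyMT the same antibody was given to mice with tumors that arose from a transgene. Lcn2 and C3 had lower means under 3B10, 1.70-fold and 1.87-fold, and neither passed. Among 11361 genes, limma called 0 members lower and 0 higher, again beside 0% of all genes each way, and voom weights also gave 0 and 0. At an unadjusted p under 0.05 there were 2 lower, Lcn2 and C3, and 0 higher, against 1.18% and 1.52% of all genes. The members' median was −0.04, beside 0.05 over all genes. The test of whether the antibody effect differed between the models called 0 members lower and 0 higher among 11944 genes in limma, and 0 and 0 at an unadjusted p under 0.05. All genes gave 0% and 0% adjusted, and 1.2% and 1.48% unadjusted. The largest such difference among the members was 2.02 for Saa3 (adjusted p = 1).

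**Figure D4:**
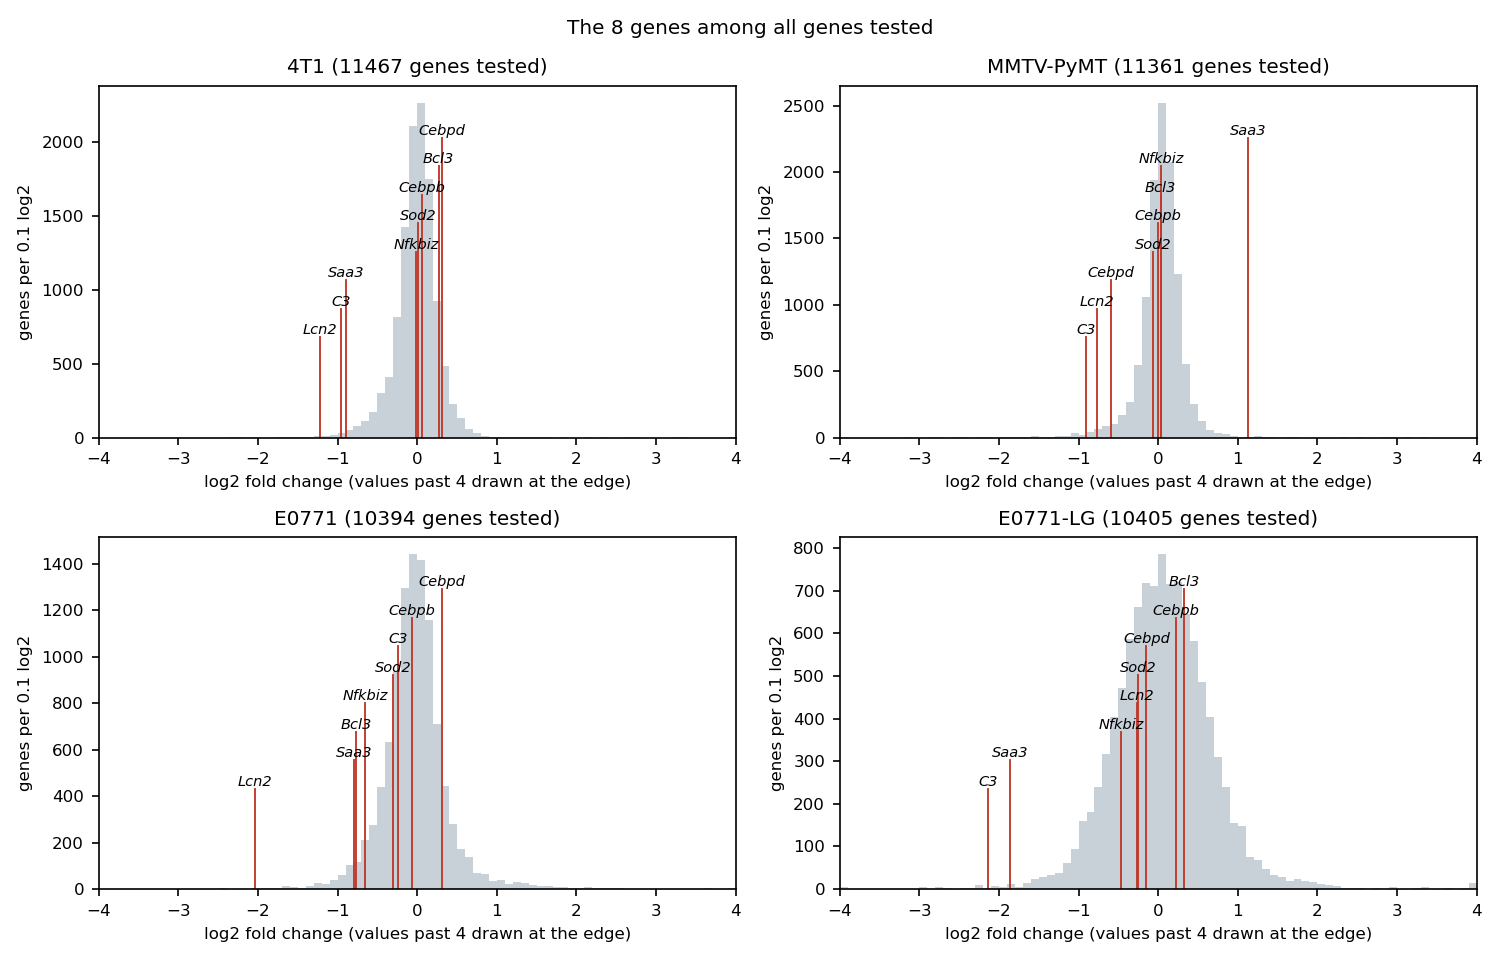
Log2 fold change of the 8 genes (red lines) on the distribution over all genes tested in each experiment, as genes per bin of 0.1 on the log2 scale. Saa3 at −1.86 and C3 at −2.14 lay in the lower tail in E0771-LG, as did Lcn2 at −2.04 in E0771.

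Summed markers of other cell types also differed among the 4T1 tumors. The T cell markers (5 of 8 in the table) summed to 69.0, 92.2 and 100 under C44 and to 46.0, 50.4 and 17.1 under 3B10, off the log scale, with Cd3g the most abundant. Every antibody-treated tumor was below every control, and 3B10 replicate 3, lowest for Saa3, Lcn2 and C3, was the lowest here too. The neutrophil markers (10 of 15) summed to 1280, 1302 and 2040 under C44 and to 1312, 1036 and 857 under 3B10, with S100a9 or S100a8 the most abundant. Macrophage markers (11 of 11) summed to 13133, 10242 and 12401 under C44 and to 5708, 10297 and 6389 under 3B10, most of it Lyz2. Epithelial markers (10 of 10, Krt18 the most abundant) went the other way, at 3536, 3964 and 3919 under C44 and 5446, 5369 and 5546 under 3B10. Muscle markers (3 of 5) summed to 9.99, 10.8 and 23.9 under C44 and to 32.2, 137 and 232 under 3B10, led by Tnnt3 or Acta1. The part of these cells in the values of Saa3, Lcn2 and C3 was not tested.

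No marker passed in 4T1, where limma called 0 in each list, as it did 0% of all genes. At an unadjusted p under 0.05 there were 5 of 5 T cell markers lower, 6 of 10 neutrophil markers lower and 1 higher, 5 of 11 macrophage markers lower, 6 of 9 epithelial markers higher, 2 of 2 muscle markers higher, and 1 of 8 fibroblast markers lower and 1 higher, against 3.1% lower and 3.17% higher over all genes. Examples with the smallest p were Lck (−0.94, adjusted p = 0.706), Ngp (−1.44, 0.461), Krt14 (2.36, 0.706) and Acta1 (5.18, 0.375). Each was past the range of the controls in 3 of 3 tumors, a separation not counted over all genes. Fibroblast markers (8 of 9, Col1a1 the most abundant) summed to 1506, 2089 and 1296 under C44 and to 1087, 4437 and 1871 under 3B10. Endothelial markers (5 of 7) summed to 96.0, 235 and 135 and to 103, 190 and 84.8, and adipocyte markers (2 of 7) to 9.68, 38.3 and 45.7 and to 24.8, 30.9 and 30.6, overlapping in each case. Hepatocyte markers, 0 of 5 in the table, could not be read.

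In MMTV-PyMT the neutrophil list summed to 748, 2255 and 1064 under C44 and to 1460, 775 and 2312 under 3B10, nearly all of it Ltf, which mammary epithelium also expresses. Macrophage markers summed to 846, 836 and 574 and to 1086, 609 and 640, and epithelial markers to 6443, 6118 and 4499 and to 5171, 5464 and 4636. Groups overlapped in each list. Fibroblast markers summed to 2539, 3869 and 1371 under C44 and to 2697, 1854 and 1912 under 3B10. T cell sums were 5.53, 7.32 and 5.6 and then 6.63, 4.61 and 8.18, and endothelial sums were 126, 154 and 97.7 and then 140, 149 and 103. Muscle sums were 25.2, 10.4 and 5.6 and then 6.63, 8.41 and 6.34, and adipocyte sums were 15.3, 16.1 and 6.24 and then 63.2, 13.3 and 7.07. Groups overlapped in these lists as well, and limma called 0 markers, with 1 epithelial and 1 adipocyte marker higher at an unadjusted p under 0.05 (1.52% of all genes). Among single markers, Fcgr1 (−0.40) lay below and Cfd (3.37) above every control in 3 of 3 antibody-treated tumors, a separation not counted over all genes. The part of these cells in the values of Lcn2 and C3 was not tested. Retnlg, Ngp and Camp were at the lowest value of their sample in 3 of 12 tumors, counting both models, and Krt5 and Myh4 in 2.

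Of the leukocyte markers, 3 of 10 for neutrophils, 3 of 11 for macrophages and 0 of 5 for T cells were at the lowest value of the sample in all 12 cell samples, and S100a8, Mmp9, Il1r2, Clec4d, Cd68, Mrc1, Lyz2, Mpeg1 and Lck were so in 0. S100a9, Csf3r, Retnlg, C1qa, C1qc, Ms4a7, Cldn3, Cldn4 and Myh4 were at the lowest value of the sample in all 12 cell samples. Ngp, Ltf, Adgre1, C1qb, Krt5, Cd3e and Cd3g were so in 11, and Camp and Cd8a in 10. Epithelial markers were carried by Krt8, and their sum was 99.3, 114 and 107 in E0771 shCtrl, 115, 99.6 and 109 in E0771 shPTN, 158, 204 and 164 in E0771-LG shCtrl and 424, 565 and 516 in E0771-LG shPTN. The labels name both lines as breast cancer cells, and the absence of Cldn3 and Cldn4 is a limit on reading them as epithelial. Krt8 rose in E0771-LG (1.57, adjusted p = 3.88e-05) in 3 of 3 samples and did not pass in E0771 (−0.05), a difference of 1.62 between the lines (adjusted p = 2.6e-05). Krt18 passed the filter through the shPTN group alone, so it had to differ. The neutrophil sum was 7.83, 12.3 and 11.9 in E0771 shCtrl and 14.9, 5.93 and 11.1 in shPTN, and in E0771-LG it was 25.8, 33.9 and 32.8 in shCtrl and 15.7, 24.0 and 20.0 in shPTN. In E0771-LG shCtrl most of that was Mmp9, which tumor cells also express and which fell by 1.82 (adjusted p = 6.12e-05) in 3 of 3 samples, as Saa3 and C3 did. The test between the lines did not pass for Mmp9 (−1.28, adjusted p = 0.056).

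Macrophage sums in E0771 were 12.1, 23.6 and 17.5 in shCtrl and 44.2, 31.8 and 37.6 in shPTN, and in E0771-LG 7.23, 9.44 and 11.3 and then 11.7, 17.3 and 16.4. Lyz2 was the most abundant in every shPTN sample and rose in both lines, by 2.23 in E0771 (adjusted p = 1.55e-05) and 1.27 in E0771-LG (adjusted p = 0.00422), in 3 of 3 samples each. Fibroblast sums were 74.8, 101 and 86.5 in E0771 shCtrl and 331, 293 and 330 in shPTN, and 92.0, 145 and 107 and then 58.3, 66.3 and 73.8 in E0771-LG. All 5 fibroblast markers tested in E0771 rose, among them Col3a1 (2.83, adjusted p = 2.02e-06) and Pdgfrb (1.61, adjusted p = 0.000469), each in 3 of 3 samples. Col1a2 (2.36, adjusted p = 0.012) was lost without shPTN replicate 3 (2.31, adjusted p = 0.0517) and was 1.42 with a pseudocount of 1, and Col1a1 (1.02, adjusted p = 0.00037) and Pdgfra (1.43, adjusted p = 0.000704) were named after their values were seen. The E0771-LG response differed from it by −3.29 for Col3a1 (adjusted p = 1.68e-05) and −2.72 for Pdgfrb (adjusted p = 0.00202). In E0771-LG 2 of 6 fell and 1 rose. Pdgfra fell (−0.68, adjusted p = 0.00649) and differed by −2.10 between the lines (adjusted p = 0.000174), and Col1a1 passed the filter through the shCtrl group alone and had to differ. Dcn (1.64, adjusted p = 0.0486) was lost without shCtrl replicate 3 (0.92), shPTN replicate 2 (1.42) or shPTN replicate 3 (1.55). Dcn was also lost with quantile normalization (1.00, adjusted p = 0.124), with no filter (0.0919), without the trend and robust settings (0.0692) and in the fit of 12 samples (0.0983). With a pseudocount of 1 it was 0.90. T cell sums stayed at or under 10.8 and were carried by Lck, endothelial sums at or under 12 and carried by Tie1, and muscle sums at or under 4.57 and carried by Acta1. Adipocyte sums were 11, 18.3 and 12.1 in E0771-LG shCtrl and 1.18, 3.93 and 3.04 in shPTN, all of it Fabp4 or nearly so, which fell by 2.46 (adjusted p = 0.0017) in 3 of 3 samples. The difference between the lines for Fabp4 (−2.16, adjusted p = 0.102) did not pass, and in E0771 the adipocyte sum was at or under 2.43. The part of these markers in the values of the 8 genes was not tested.

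Beside the counts of markers, all genes gave 11.7% lower and 8.89% higher in E0771 and 22.1% and 24.3% in E0771-LG. By list, limma called 0 of 3 neutrophil markers in E0771, with 0 at an unadjusted p under 0.05, and in E0771-LG 1 of 3 lower and 1 higher, Clec4d (1.01, adjusted p = 0.0119), which was lost without shPTN replicate 2 (0.84). Of macrophage markers 1 of 2 rose in E0771, and in E0771-LG 2 of 3 rose, Lyz2 and Cd68 (2.17, adjusted p = 0.00207), and Mrc1 fell (−0.81, adjusted p = 0.0406). Mrc1 was lost without shCtrl replicate 2 (−0.72), shCtrl replicate 3 (−0.75), shPTN replicate 1 (−0.70), shPTN replicate 2 (−0.91) or shPTN replicate 3 (−0.81). Cd68 differed between the lines by 3.09 (adjusted p = 0.00103), and the same test did not pass for Clec4d (0.61, 0.364) or Mrc1 (−0.95, 0.307). Epithelial markers gave 0 of 2 in E0771, with 1 higher at an unadjusted p under 0.05, and 3 of 3 higher in E0771-LG, of which Krt18 had to differ and Epcam (0.46, adjusted p = 0.0381) was lost without shCtrl replicate 1 (0.44), shCtrl replicate 3 (0.43), shPTN replicate 1 (0.32) or shPTN replicate 3 (0.49). The only T cell marker tested in E0771, Lck, rose (0.82, adjusted p = 0.0274), and was lost without shCtrl replicate 2 (0.60), shCtrl replicate 3 (0.91), shPTN replicate 1 (0.80) or shPTN replicate 3 (0.81). In E0771-LG Lck rose (1.32, adjusted p = 0.00326) and passed in every alternative, while Cd3d, the other T cell marker tested, passed the filter through the shPTN group alone and had to differ. Of endothelial markers the 1 tested in E0771, Tie1, rose (0.52, adjusted p = 0.0497) and was lost without any 1 library (0.49 to 0.57), and 0 of 2 passed in E0771-LG, with 0 at an unadjusted p under 0.05. The adipocyte marker Fabp4 did not pass in E0771 (−0.30). No muscle marker was tested in E0771, and the 1 tested in E0771-LG, Acta1, fell (−1.20, adjusted p = 0.0292) and was lost without shCtrl replicate 1 (−0.93), shPTN replicate 1 (−0.95) or shPTN replicate 3 (−1.30). The lines differed for Acta1 (−3.19, adjusted p = 0.00413, with 1 of 6 E0771 samples at the filter), Dcn (3.07, 0.0467, with every E0771 sample under the filter) and Lyz2 (−0.96, 0.0331), and the test did not pass for Col1a2 (−1.07, 0.316), Epcam (−0.14, 0.705), Lck (0.50, 0.309) or Tie1 (−0.61, 0.213).

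**Figure D5:**
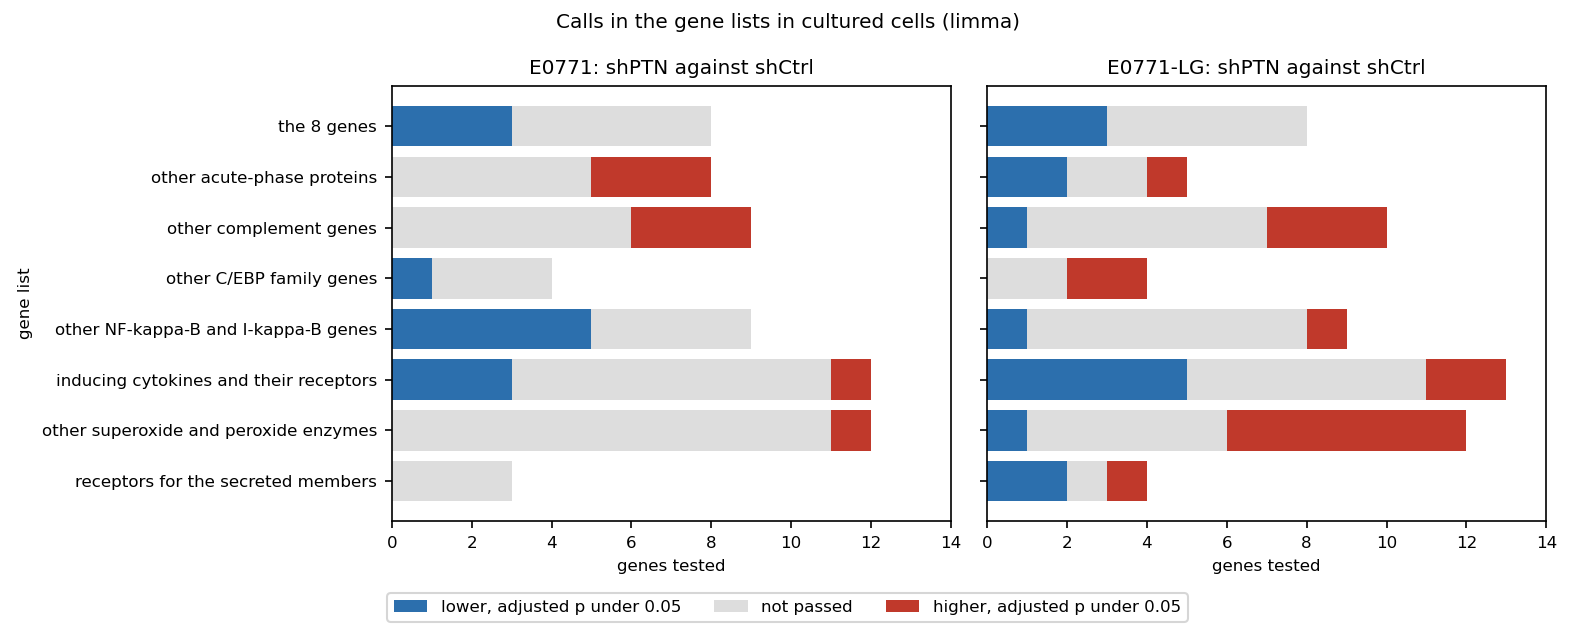
Number of genes called lower (blue), not passed (grey) and called higher (red) in each gene list, after knockdown in E0771 and in E0771-LG. In E0771 5 of 9 NF-κB and IκB genes were lower and none higher (all genes 11.7% and 8.89%), and in E0771-LG 1 was lower and 1 higher (all genes 22.1% and 24.3%).

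Other genes of the same pathways were read from lists, and beside their counts the shares of all genes called lower were 11.7% in E0771 and 22.1% in E0771-LG, and of those called higher 8.89% and 24.3%. The list of other NF-κB and IκB genes had 9 of 10 in the table, all tested in the cells. In E0771 5 of 9 fell and 0 rose, with 0 higher at an unadjusted p under 0.05 and a list median of −0.32. Relb fell by 1.02 (adjusted p = 0.00602) and Nfkbia, which codes for the cytoplasmic inhibitor IκBα, by 0.56 (adjusted p = 0.00459), in 3 of 3 samples each and in every alternative. Nfkb2 (−0.39, adjusted p = 0.0271) was lost without shCtrl replicate 2 (−0.32), shCtrl replicate 3 (−0.33) or shPTN replicate 3 (−0.37), with no filter and without the trend and robust settings. The last 2, Nfkb1 (−0.34, adjusted p = 0.0175) and Nfkbib (−0.32, adjusted p = 0.0405), were named after their values were seen. Nfkb1 was lost without shCtrl replicate 1 (−0.30) or shCtrl replicate 3 (−0.35), and Nfkbib without shCtrl replicate 1 (−0.32), shCtrl replicate 2 (−0.36), shCtrl replicate 3 (−0.28), shPTN replicate 2 (−0.27) or shPTN replicate 3 (−0.31). Nfkbib was also lost with no filter (adjusted p = 0.0576), without the trend and robust settings (0.0731), with quantile normalization (0.0789) and with median-of-ratios scaling (0.0581). Over all alternatives the count of genes that fell was between 2 and 5. In E0771-LG 1 of 9 fell and 1 rose, each below the share over all genes, with a list median of −0.16. Nfkb1, which codes for p105 and p50, fell by 0.74 (adjusted p = 0.000336) in 3 of 3 samples. Nfkbia rose there (0.42, adjusted p = 0.0154), though not without shCtrl replicate 3 (0.33) or shPTN replicate 2 (0.38). The lines differed for Nfkbia by 0.98 (adjusted p = 0.000694), for Relb by 0.72 (0.0463), for Nfkb1 by −0.40 (0.0321) and for Nfkbib by 0.38 (0.0298), and the test did not pass for Nfkb2 (0.18, 0.399).

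Other C/EBP genes were 5 of 5 in the table and 4 were tested in the cells. In E0771 1 fell and 0 rose (11.7% and 8.89% of all genes), with 0 higher at an unadjusted p under 0.05, and the list median was −0.16. It was Cebpg, which fell by 0.48 (adjusted p = 0.00495). In E0771-LG 2 rose and 0 fell (24.3% and 22.1% of all genes), with 0 lower at an unadjusted p under 0.05, and the list median was 0.64. These were Ddit3, the stress-induced member CHOP (1.28, adjusted p = 0.00453), and Cebpe (1.13, adjusted p = 0.00199). Each was past the controls in 3 of 3 samples and the counts were the same in every alternative. The lines differed by 0.54 for Cebpg (adjusted p = 0.0206), 1.54 for Ddit3 (0.0055) and 0.93 for Cebpe (0.0485). Cebpb and Cebpd passed in neither line.

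Of 18 inducing cytokines and receptors, 15 were in the table. In E0771 3 of 12 tested fell and 1 rose (11.7% and 8.89% of all genes), with a list median of −0.13. Osmr, the oncostatin M receptor, fell by 0.80 (adjusted p = 0.0066) and Il1r1 rose by 0.70 (adjusted p = 0.00205), in 3 of 3 samples each. Lif (−0.96, adjusted p = 0.0258) and Osm (−0.75, adjusted p = 0.0433) passed with all libraries. Lif was lost without shCtrl replicate 2 (−0.83), shCtrl replicate 3 (−0.82), shPTN replicate 2 (−0.76) or shPTN replicate 3 (−1.03). Osm was lost without shCtrl replicate 2 (−0.65), shCtrl replicate 3 (−0.62), shPTN replicate 1 (−0.76), shPTN replicate 2 (−0.62) or shPTN replicate 3 (−0.87), and both were lost with no filter. Without the trend and robust settings Osm was lost as well (adjusted p = 0.0579), and in the fit of 12 samples Lif was (0.0717). In E0771-LG 5 of 13 fell and 2 rose (22.1% and 24.3% of all genes), with a list median of −0.42. Il6st, the shared receptor chain of the IL-6 family, fell by 0.92 (adjusted p = 4.43e-05), Osmr by 0.97 (adjusted p = 0.00377) and Il1r1 by 0.68 (adjusted p = 0.00163), in 3 of 3 samples each. The other 2 that fell, Il1rap (−0.64, adjusted p = 0.00175) and Stat3 (−0.42, adjusted p = 0.0311), were named after their values were seen, and neither passed the test between the lines (adjusted p = 0.0623 and 0.083). Stat3 was lost without shCtrl replicate 2 (−0.29), shCtrl replicate 3 (−0.41), shPTN replicate 1 (−0.32) or shPTN replicate 2 (−0.45). Osm (0.54, adjusted p = 0.0426) and Il17rc (0.41, adjusted p = 0.0171) rose, and both were lost without shCtrl replicate 3 (0.45 and 0.34), shPTN replicate 2 (0.43 and 0.39) or shPTN replicate 3 (0.47 and 0.37). Osm was also lost with quantile normalization (0.39, adjusted p = 0.114), no filter (0.0613), median-of-ratios scaling (0.051), voom weights (0.0542) and in the fit of 12 samples (0.0589). The lines differed for Il1r1 (−1.38, adjusted p = 6.24e-05), Il6st (−1.07, 7.92e-05), Osm (1.29, 0.00696) and Il17rc (0.53, 0.0243), and the test did not pass for Osmr (−0.17, 0.653) or Lif (0.83, 0.205).

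Of 30 other acute-phase proteins 16 were in the table. In E0771 8 were tested, 3 rose and 0 fell in limma (8.89% and 11.7% of all genes), where 1 was lower at an unadjusted p under 0.05. The list median was 0.48, opposite in sign to the members' median, over 8 genes that include Agt and Cp, both low in shCtrl. Cp, which codes for the copper carrier ceruloplasmin, rose by 4.59 (adjusted p = 8.79e-06) and Lbp by 1.41 (adjusted p = 0.00608), in 3 of 3 samples each. Only 1 of 3 shCtrl samples reached the filter for Cp, and Lbp was lost in the fit of 12 samples (adjusted p = 0.243). Agt passed the filter through the shPTN group alone and had to differ. In E0771-LG 5 were tested, 2 fell and 1 rose (22.1% and 24.3% of all genes), with a list median of 0.05. Cd14, the lipopolysaccharide co-receptor, fell by 1.15 (adjusted p = 0.000765) and the zinc importer Slc39a14 by 0.81 (adjusted p = 0.000256), in 3 of 3 samples each. Mt1 rose (0.77, adjusted p = 0.0395), and was lost without shCtrl replicate 1 (0.93), shCtrl replicate 3 (0.88), shPTN replicate 1 (0.63) or shPTN replicate 2 (0.78), and was 0.51 without shCtrl replicate 2. The lines differed by −4.54 for Cp (adjusted p = 1.3e-05) and −0.87 for Slc39a14 (0.000491), and the test did not pass for Lbp (−0.91, 0.549), Cd14 (−0.52, 0.221) or Mt1 (0.54, 0.365).

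Complement genes other than C3 were 17 of 26 in the table. In E0771 3 of 9 tested rose and 0 fell (8.89% and 11.7% of all genes), with 0 lower at an unadjusted p under 0.05 and a list median of 0.09. Masp1, a protease of the lectin pathway, rose by 1.30 (adjusted p = 0.000951) and Clu by 0.87 (adjusted p = 0.0014), in 3 of 3 samples and every alternative. C1rl (0.63, adjusted p = 0.023) was lost without shCtrl replicate 1 (0.55), shCtrl replicate 2 (0.57), shPTN replicate 1 (0.58) or shPTN replicate 3 (0.66). In E0771-LG 1 of 10 fell and 3 rose (22.1% and 24.3% of all genes), with a list median of 0.53, while C3 fell. C2, a part of the classical and lectin C3 convertase, rose by 1.67 (adjusted p = 0.00537) in 3 of 3 samples, and by 1.07 with a pseudocount of 1. Cd59a (1.30, adjusted p = 0.0353) was lost without shCtrl replicate 1 (1.17), shCtrl replicate 2 (1.08), shPTN replicate 1 (1.43), shPTN replicate 2 (1.00) or shPTN replicate 3 (1.47), and Cfp (0.89, adjusted p = 0.0463) without any 1 of the 6 (0.80 to 0.96). With quantile normalization Cd59a was 0.81 (adjusted p = 0.164) and Cfp 0.46 (0.271), neither of which passed, and Cd59a was 0.81 with a pseudocount of 1 as well. C4b passed the filter through the shCtrl group alone and had to differ. The lines differed for C2 (1.90, adjusted p = 0.00481) and Masp1 (−1.52, 0.0109), and the test did not pass for Clu (−0.34, 0.387), C1rl (−0.74, 0.159), Cd59a (1.25, 0.0645) or Cfp (0.67, 0.304).

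The superoxide and peroxide enzymes beside Sod2 were 12 of 12 in the table and tested. In E0771 0 fell in limma, with 0 lower at an unadjusted p under 0.05, and the 1 that rose, Sod3, passed the filter through the shPTN group alone and had to differ. The list median there was 0.05. In E0771-LG 6 of 12 rose and 1 fell (24.3% and 22.1% of all genes), with a list median of 0.30, opposite in sign to Sod2. Gpx4, which reduces lipid peroxides, rose by 0.87 (adjusted p = 0.000364), cytosolic Sod1 by 0.81 (adjusted p = 0.000187) and Txnrd2 by 0.77 (adjusted p = 0.000778), in 3 of 3 samples each. The other 3 that rose, Prdx1 (0.30, adjusted p = 0.0278), Prdx2 (0.34, adjusted p = 0.00783) and Prdx5 (0.48, adjusted p = 0.00721), were named after their values were seen, and Prdx1 was lost without shCtrl replicate 3 (0.23), shPTN replicate 2 (0.26) or shPTN replicate 3 (0.28). Prdx3, like Sod2 a mitochondrial enzyme, fell (−0.37, adjusted p = 0.0309), and was lost without shCtrl replicate 3 (−0.40), shPTN replicate 1 (−0.33), shPTN replicate 2 (−0.36) or shPTN replicate 3 (−0.41), and was −0.23 without shCtrl replicate 1. The lines differed for Sod1 (0.80, adjusted p = 0.00417), Gpx4 (0.79, 0.00895) and Txnrd2 (0.62, 0.00735), and the test did not pass for Prdx1 (0.27, 0.198), Prdx2 (0.37, 0.104), Prdx3 (−0.22, 0.284) or Prdx5 (0.31, 0.309).

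Receptors for the secreted proteins were 8 of 10 in the table. In E0771 3 were tested and limma called 0, with 0 at an unadjusted p under 0.05 and a list median of 0. In E0771-LG 2 of 4 fell and 1 rose (22.1% and 24.3% of all genes), with a list median of −0.66. Tlr4 fell by 0.78 (adjusted p = 0.000675) and Tlr2 by 0.68 (adjusted p = 0.0095), in 3 of 3 samples each. Lrp2 (1.15, adjusted p = 0.0247), an endocytic receptor for lipocalin 2, was lost without shCtrl replicate 2 (1.17), shPTN replicate 1 (1.09), shPTN replicate 2 (1.16) or shPTN replicate 3 (1.21), and was 0.75 without shCtrl replicate 1. The lines differed for Tlr4 (−0.96, adjusted p = 0.000412), and the test did not pass for Tlr2 (−0.40, 0.21) or Lrp2 (1.15, 0.104).

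In the tumors limma called 0 genes of these lists in either model. Before adjustment, at a p under 0.05, 4T1 had 3 of 14 acute-phase genes lower, 7 of 17 complement genes lower, 4 of 15 cytokines and receptors lower and 2 of 7 receptors for the secreted proteins lower, with 0 higher in each, against 3.1% lower and 3.17% higher over all genes. There were 0 among the C/EBP genes, the NF-κB genes and the enzymes. Saa2 (−1.50, adjusted p = 0.722), a serum amyloid A gene like Saa3, and C3ar1 (−0.67, adjusted p = 0.722), the receptor of a C3 fragment, lay below the controls in 3 of 3 antibody-treated tumors. This separation was not counted over all genes. List medians in 4T1 were −0.25 for acute-phase genes, −0.41 for complement, −0.33 for cytokines and receptors, −0.60 for receptors, −0.11 for C/EBP genes, 0.01 for NF-κB genes and 0.14 for the enzymes. In MMTV-PyMT 1 of 14 acute-phase genes and 2 of 16 complement genes were lower and 1 of 13 cytokines and receptors was higher at an unadjusted p under 0.05 (1.18% lower and 1.52% higher over all genes), with medians of −0.10, −0.15 and −0.06. The C/EBP, NF-κB, enzyme and receptor lists had 0 at that threshold, with medians of 0.07, −0.17, −0.01 and 0.09. The examples with the smallest p were Cp (−0.48), Clu (−0.57) and Il6ra (0.93), each with an adjusted p of 1.

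Genes whose values were most like those of each member were found over the 12 cell samples after each line's mean was subtracted, among 10223 genes. These are Pearson r without a test, and all points share their libraries and depth. The shift between shCtrl and shPTN was not subtracted, so r includes it. For Saa3 the closest were Matn2 (0.962), Ckap4 (0.917) and Dap (0.899). For Lcn2 they were Pvr (0.96), Ccnt2 (0.956) and Tgfb1 (0.954), and for C3 they were C2cd3 (0.961), Ntn1 (0.953) and Adar (0.947). None of the 8 genes was among the closest to another. Cebpb was most like Ifitm3 (0.947), Slc35a2 (0.925) and Bst2 (0.922), and Cebpd most like Stc1 (0.83), Sema4g (0.818) and Tsku (0.796). Nfkbiz was closest to Tnfaip2 (0.968), Ccl2 (0.968) and Itga5 (0.958). Bcl3 was closest to A4galt (0.986), Ier3 (0.983) and Cyp4f13 (0.973), and Sod2 to Abi1 (0.96), Lypla1 (0.955) and Cers2 (0.95).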

How the data were processed

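The authors sequenced total RNA from 24 samples and, per the labels, aligned reads with HISAT2 to mm10, counted them with featureCounts and processed them with edgeR and limma, whose versions are not given. The deposited table holds log2 values of 12091 genes. In 18 samples the values equal log2 CPM (reads scaled to library size) with an offset of 0.5 reads, and whole reads were recovered from them within 0.05. The 4T1 values fall with gene length and are taken as length-scaled. Groups followed the labels, 3 samples each, and 0 columns of values were left unused. Genes were kept at 1 or more off the log scale, after the lowest value of the sample was subtracted, in at least 3 samples. They were fitted with limma 3.58.1 in R 4.3.3, with trend and robust eBayes. Benjamini-Hochberg adjustment ran over all genes tested, at a threshold of 0.05. Statements of which cell samples reached the filter used 1 or more off the log scale without that subtraction. Each experiment was fitted alone, with a fit of 12 samples for each test between lines or models. Tables and figures used Python 3.11.15, pandas 2.3.3, numpy 2.4.6 and matplotlib 3.10.9.

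Named were the 8 members and Ptn. Of each other list, up to 3 genes per direction with the largest change among those that passed were named in each experiment, or the 2 with the smallest p where none did. Also named were the most abundant gene and the genes at the lowest value of each marker list, and the 3 genes most like each member. Members and lists were chosen with earlier results of these data known. The alternatives were no filter, a filter at 5, pseudocounts of 1 and 0.1, eBayes without trend and robust, quantile normalization, median-of-ratios scaling, voom weights, the replicate number as a block, a fit of 12 samples in place of 6, and each sample left out in turn. Gene positions and lengths are from GENCODE M21. No set test was run, the deposited table holds no protein values, and tests over the list alone were left out.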

Additional observations from a re-analysis of the deposited data

Results flagged for a closer look

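The effect of shPTN differed between E0771-LG and E0771 for 31 of the 60 genes tested that the naming rule picked and that are not among the 8, by the test of the difference itself in limma over 10600 genes. All genes gave 15.7% lower and 18.3% higher. Of the 60, 53 were picked because they passed in 1 of these same lines, so a high count was built in. Each value is the log2 effect in E0771-LG minus that in E0771, with adjusted p in parentheses. Among acute-phase genes the differences were −4.54 for Cp (adjusted p = 1.3e-05), −0.87 for Slc39a14 (0.000491) and −7.53 for Agt (0.000145). Agt passed the filter through E0771 shPTN alone, so it had to differ and its p supports nothing. Complement genes gave 1.90 for C2 (adjusted p = 0.00481) and −1.52 for Masp1 (0.0109). C/EBP genes gave 0.93 for Cebpe (adjusted p = 0.0485), 0.54 for Cebpg (0.0206) and 1.54 for Ddit3 (0.0055). NF-κB genes gave 0.98 for Nfkbia (adjusted p = 0.000694), −0.40 for Nfkb1 (0.0321) and 0.72 for Relb (0.0463), and Nfkbib, named after its values were seen and not among the 31, gave 0.38 (0.0298). Cytokines and receptors gave 1.29 for Osm (adjusted p = 0.00696), −1.38 for Il1r1 (6.24e-05), −0.76 for Il6ra (0.035), −1.07 for Il6st (7.92e-05) and 0.53 for Il17rc (0.0243). Among the enzymes the differences were 0.80 for Sod1 (adjusted p = 0.00417), −3.55 for Sod3 (2.54e-05), 0.79 for Gpx4 (0.00895) and 0.62 for Txnrd2 (0.00735). Tlr4, a receptor, differed by −0.96 (adjusted p = 0.000412). Markers of cell types gave 3.09 for Cd68 (adjusted p = 0.00103), −0.96 for Lyz2 (0.0331), 1.62 for Krt8 (2.6e-05), 3.90 for Krt18 (0.00543), −5.70 for Col1a1 (4.63e-06), −3.29 for Col3a1 (1.68e-05), 3.07 for Dcn (0.0467), −2.10 for Pdgfra (0.000174), −2.72 for Pdgfrb (0.00202) and −3.19 for Acta1 (0.00413). Krt18 passed the filter through E0771-LG shPTN alone and had to differ as well. For Dcn every E0771 sample was under the filter, and for Acta1 5 of 6 were. No E0771 shCtrl sample reached it for Sod3, 1 did for Cp, and no E0771-LG shPTN sample did for Col1a1. The p of Sod3 and that of Col1a1 therefore support nothing either. Of the 8 genes 0 differed in this test, with 1 at an unadjusted p under 0.05 and 0 with voom weights. Groups of 3 samples were not tested for a sample far from the others, and no deposited column was left unused.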

How the results depend on the processing

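Of 1102 values recomputed under an alternative, 1008 kept their direction and their side of the threshold, 61 changed sign, 20 lost the call and 13 gained one. Those that changed sign with all libraries had a value near 0 in the main fit, and none had passed. With quantile normalization these were 4T1 Nfkbiz 0.005 and Sod2 −0.004, MMTV-PyMT Cebpb 0.015, Nfkbiz −0.025 and Bcl3 −0.016, and the difference between tumor models for C3 −0.02, Nfkbiz −0.023 and Ptn −0.381. With median-of-ratios scaling they were MMTV-PyMT Nfkbiz −0.014 and Bcl3 −0.019, the difference between lines for Sod2 −0.007, the shCtrl lines for Sod2 0.072 and the difference between models for Ptn −0.01, and with a pseudocount of 0.1 the last was −0.186. The members called lower in the difference between lines were 1 with a pseudocount of 1, quantile normalization or the replicate block, and those called higher 1 with the replicate block; the cause was not tested. Leaving out 1 library moved the members called in E0771 lower from 0 to 3, in E0771-LG lower from 2 to 3 and higher from 0 to 1, and in the difference between lines lower from 0 to 1 and higher from 0 to 2, where fewer samples are tested. The ranges that crossed 0 were −0.168 to 0.222 for 4T1 Cebpb, −0.259 to 0.242 for Nfkbiz and −0.092 to 0.106 for Sod2, and in MMTV-PyMT −0.249 to 0.127 for Cebpb, −0.134 to 0.253 for Nfkbiz, −0.186 to 0.173 for Bcl3 and −0.203 to 0.049 for Sod2. They were −0.215 to 0.179 for E0771 Cebpb, −0.557 to 0.292 for E0771-LG Lcn2, −0.322 to 0.202 for E0771-LG Cebpd and −0.008 to 0.106 for Sod2 between lines. Between models they were −0.469 to 1.137 for Lcn2, −0.756 to 0.726 for C3, −0.308 to 0.163 for Cebpb, −0.207 to 0.294 for Nfkbiz, −0.213 to 0.039 for Sod2 and −0.434 to 0.378 for Ptn. Of the list genes named, 11 of 21 in E0771 and 19 of 38 in E0771-LG passed in every alternative, and 0 changed sign. With all libraries kept, 8 in E0771 and 14 in E0771-LG were lost or left untested in some alternative. The replicate number showed no consistent pairing: residuals of samples with the same number correlated between −0.327 and 0.436, and with the replicate block the calls went from 2140 to 2450 in E0771 and from 4826 to 5012 in E0771-LG. No value was given for E0771 Saa3 with a filter at 5 or without 3 of the 6 libraries, nor for E0771 Lcn2, C3 and Ptn and MMTV-PyMT Saa3 with a filter at 5, and voom was not run with 4T1. Depth limits Saa3 and Lcn2 in E0771, read from 8 to 34 and from 26 to 253 reads.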
